A study of Homo sapiens with 4 samples.

Results

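Replication-dependent histone genes were examined by RNA-seq with and without GNE-987 in cells that the labels call NB4, a line derived from a patient with acute promyelocytic leukemia. The genes were the rows of the deposited FPKM table whose identifier belongs in GENCODE release 44 to a protein-coding gene named H1-1 to H1-6, H2AC, H2BC, H3C or H4C with a number. This gave 66 genes of 58735 rows, namely 6 for H1, 15 for H2A, 19 for H2B, 11 for H3 and 15 for H4. A further 4 genes of the rule (H2AC18, H2AC19, H3C2 and H3C3) were not analysed here. The control group was 2 libraries of untreated cells, and the other group was 2 libraries of cells given 25 nM GNE-987 for 24 h, with dose and time taken from the study's description of the experiment. GNE-987 is a bifunctional molecule that joins a ligand of BET bromodomain proteins to a ligand of a ubiquitin ligase, which leads to the degradation of those proteins. Nothing in the labels says that replicate libraries came from separate cultures, so P values measure the spread between these libraries, which may be technical.

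Histones H2A, H2B, H3 and H4 form the core around which DNA is wrapped, and H1 binds the DNA between cores. Replication-dependent histone genes supply these proteins in S phase, when the DNA is copied, from gene clusters that hold many near-identical genes without introns. Their mRNAs usually lack a poly(A) tail and end in a stem-loop that is bound by SLBP, although some of these genes also make polyadenylated mRNA in cells that do not divide. Because RNA was measured in bulk, more cells of one type and more RNA per cell cannot be told apart.

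The stem-loop is shown first because it marks the 3′ ends of these mRNAs. A search of the 200 bases after each stop codon in hg38 for the 16 letters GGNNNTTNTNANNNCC, with both arms of the stem pairing, found it in 65 of 66 members (98.5%) and in 77 of 19924 protein-coding genes (0.386%), the members included. The exception was H2BC12L. The stem-loop began 22 to 62 bases after the stop codon, with a median of 35. The most common form, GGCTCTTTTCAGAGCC, was found in 36 members of H1, H2A, H2B and H3, and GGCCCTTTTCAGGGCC in 10 members, which were H4 genes. Below are the stem-loops in capitals, with 5 bases on each side, of the member with the highest mean FPKM of each type, followed by the members with the largest (H2BC14) and the smallest (H2BC11) log2 fold change.
H1-2: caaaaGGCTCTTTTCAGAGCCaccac
H2AC12: acaaaGGCTCTTTTCAGAGCCattct
H2BC12: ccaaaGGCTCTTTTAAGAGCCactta
H3C10: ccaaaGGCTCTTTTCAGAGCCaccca
H4C9: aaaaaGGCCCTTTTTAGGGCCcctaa
H2BC14: ccaaaGGCTCTTTTCAGAGCCgtcca
H2BC11: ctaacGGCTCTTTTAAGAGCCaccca
These lie at chr6:26055739-26055764 (minus strand), chr6:27147541-27147566 (plus), chr6:27146361-27146386 (minus), chr6:27810511-27810536 (plus), chr6:27139649-27139674 (plus), chr6:27815464-27815489 (plus) and chr6:27132316-27132341 (minus), in that order. Changes of very different size were found with the same form. Among the 34 tested members with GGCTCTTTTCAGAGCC the log2 fold change ranged from 1.56 to 9.42, and among the 9 with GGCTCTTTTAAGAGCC from 0.87 to 8.21.

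Low FPKM values step by the worth of a single read, and the reads recovered in this way summed to 19485017 and 19274898 on genes in the control libraries and, at lower depth, to 12380032 and 12885206 after GNE-987. Of the promyelocytic and granulocytic markers MPO, ELANE, PRTN3, AZU1, CTSG and CD33, summed FPKM was 3.27 and 3.73 in the control libraries, and CTSG was listed at 0 in all 4 libraries, as was ELANE in both controls. Erythroid markers such as GATA1, at 124 and 122 FPKM, were present, while MPO, a defining granule gene of promyelocytes, was at 0.0246 and 0 FPKM in control. Their sums with GNE-987 were 26.03 and 23.6 for the granulocytic list and 481 and 406 for the erythroid list, against 322 and 333 for the erythroid list in control. The part of these markers in the results below was not tested.

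Replication-dependent histone genes of every type were higher with GNE-987. Together the 66 genes summed to 2906 and 2986 FPKM in the control libraries and to 16397 and 16579 FPKM after GNE-987, a ratio of means of 5.60. They took 0.222% and 0.220% of recovered reads in control and 0.816% and 0.833% with GNE-987. At least 1 FPKM was listed for 34 and 35 members in the control libraries and for 61 and 62 in the GNE-987 libraries, and at least 10 FPKM for 16 and 15 members against 52 and 53.

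Differences were tested with limma on log2(FPKM + 0.1) for the 16668 genes whose FPKM averaged 0.5 or more across all 4 libraries. Calls needed an unadjusted P below 0.05 together with more than a 2-fold change in either direction. Of all tested genes, 33.6% were called higher and 24.9% lower, and of the 10996 protein-coding genes 23.99% and 31.7%. Among the members, 40 had a control mean that alone passed the filter on low values. Of these 40, 39 were called higher, 0 lower, and H2BC11 was not called, with a median log2 fold change of 4.18 against 0.17 over all tested genes. Another 22 members passed the filter only through their GNE-987 libraries and so had to differ. Their values are a description, with GNE-987 means from 1.01 FPKM (H2BC1) upward. The 4 members under the filter were H3C4 and H2AC15, listed at 0 in all libraries, H2AC7, with 0.304 FPKM in GNE-987 replicate 1 alone, and H4C16. The 40 members that passed by their control mean all had a log2 fold change above 0. After scaling to GAPDH, H2BC4 (-0.31), H2BC17 (-0.29) and H2BC11 (-0.98) were below 0. After quantile normalization, H1-2 (-0.03) and H2BC11 (-0.06) were below 0. The largest adjusted P value among the 40 was 0.0115, for H2BC12L (limma, Benjamini-Hochberg).

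The scale of the values sets how many of these calls hold. With GAPDH as the reference, which was itself 1.85 higher on the log2 scale with GNE-987, the median of all genes shifted by -1.77. Of the 40 members whose control mean passes the filter, 28 were then called higher and 0 lower (49 of all 62 tested), beside 3031 higher and 9738 lower of all genes. Scaling to the total of recovered reads shifted the median of all genes by -0.74 and left 37 of these 40 called higher (58 of 62), beside 4184 higher and 6640 lower of all genes. Quantile normalization left 35 of the 40 (56 of 62). The median log2 fold change of the 40 lay 4.002 above that of all genes in the deposited values, 3.96 above it with GAPDH, 3.98 with total reads and 4.03 with quantile normalization.

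**Figure D1:**
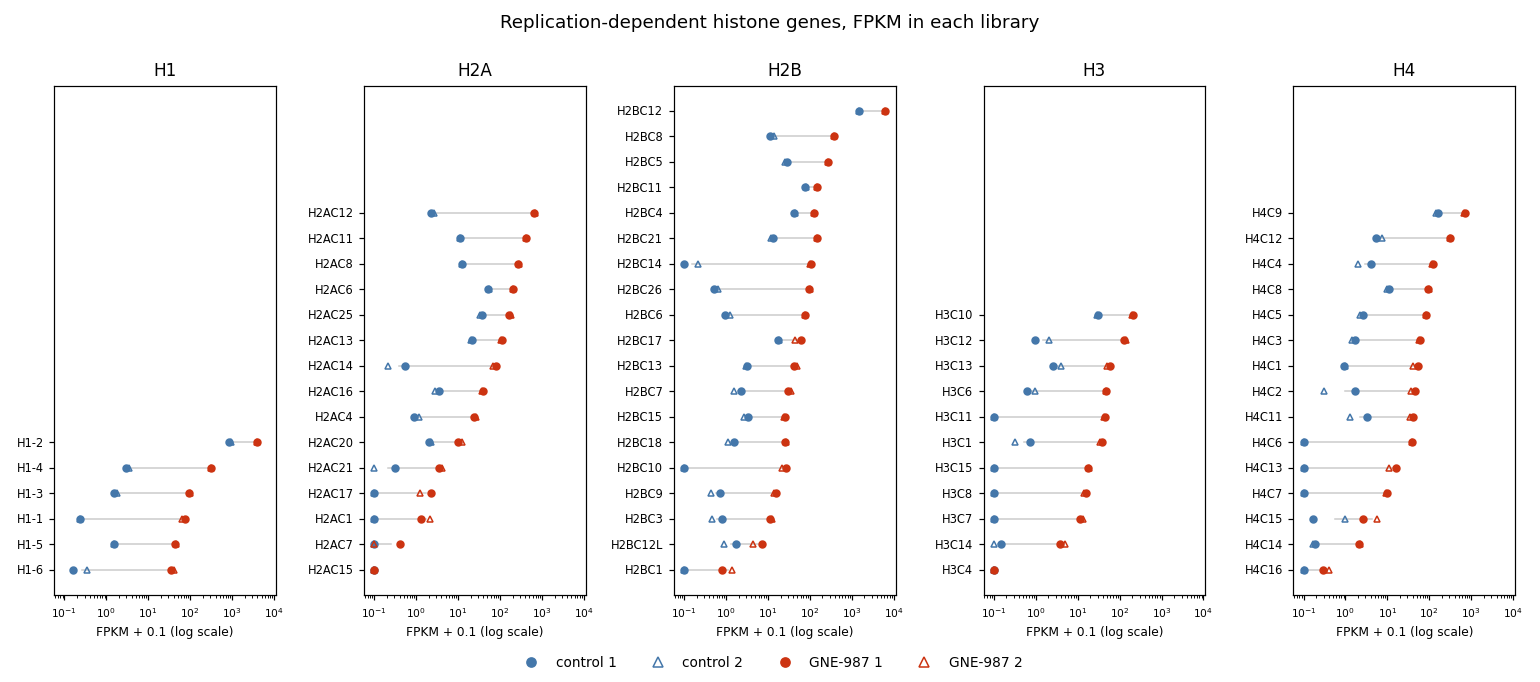
FPKM + 0.1 on a log axis for each of the 66 genes in each library, one panel per histone type, genes ordered by their mean. Filled circles are replicate 1 and open triangles replicate 2, control in blue and GNE-987 in red, and grey lines join the group means. Among the tested genes, lines are mostly shorter where the control level is high. H3C4 and H2AC15, listed at 0 in all libraries, have lines of no length.

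Genes of the linker histone H1 are all in the chromosome 6 cluster. H1-2 (chromosome 6, 26055740 to 26056470, on the minus strand) stood at 859 and 914 FPKM in control, against 3999 and 3993 FPKM with GNE-987. H1-2 made up 99.3% of the summed H1 FPKM in each control library and 87.7% and 87.6% with GNE-987. Its log2 fold change was 2.17 ± 0.05 (SE, n = 2 libraries per group, limma, adjusted P = 0.000133), the smallest of the 6 H1 genes. H1-4 was at 2.88 and 3.36 FPKM in control and at 311 and 317 FPKM with GNE-987. H1-3 was at 1.43 and 1.70 FPKM and then at 93.6 and 97.8 FPKM. The replicates of each group lay close together, far from those of the other group. H1-4 rose by 6.61 ± 0.09 and H1-3 by 5.85 ± 0.10 on the log2 scale. H1-1 was at 0.134 and 0.140 FPKM, which is 4 reads over the control group, and reached 75.9 and 64.7 FPKM after GNE-987, with a log2 fold change of 8.21. The 4 H1 genes whose control mean passed the filter were called higher, 3 of them also with GAPDH and with quantile normalization, where H1-2 (0.32 and -0.03) was not called. H1-1 and H1-6 passed only through GNE-987. H1-6, known as a testis form, was at 0.0605 and 0.252 FPKM in control and at 34.7 and 40.9 FPKM with GNE-987.

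Among H2A genes, the order of levels changed between the groups. H2AC6 was the highest H2A gene in control, at 51.8 and 53.7 FPKM, and was at 209 and 198 FPKM with GNE-987. H2AC12 (chromosome 6, 27147106 to 27147562, plus strand) was at 2.13 and 2.57 FPKM in control, from 41 reads, and reached 645 and 671 FPKM with GNE-987, from 4378 reads. H2AC12 went from 1.502% and 1.85% of the summed H2A FPKM to 33.0% and 33.6%. The log2 fold change was 8.07 ± 0.10 for H2AC12 (limma, adjusted P = 9.61e-05) and 1.94 ± 0.05 for H2AC6 (adjusted P = 0.00014). H2AC11 was at 10.9 and 11.2 FPKM in control and at 406 and 408 FPKM with GNE-987. H2AC8 was at 11.9 and 12.2 FPKM in control and at 262 and 283 FPKM with GNE-987. For neither gene did the groups come near each other. Of the 15 H2A genes, 13 were tested and 13 called higher, 9 of them with a control mean that passed the filter by itself. H2AC1 and H2AC17 were listed at 0 in each control library and reached 1.15 to 2.13 FPKM after GNE-987.

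H2B genes held both the highest level and the smallest change. H2BC12 (chromosome 6, 27146361 to 27146855, on the minus strand) stood at 1472 and 1511 FPKM in control and reached 6110 and 6366 FPKM with GNE-987. H2BC12 was the highest of the 66 genes in every library, with 87.8% and 87.98% of the summed H2B FPKM in control and 79.2% and 80.2% with GNE-987. The log2 fold change of H2BC12 was 2.06 ± 0.05 (limma, adjusted P = 0.000138), but 0.21 with GAPDH and 0.05 with quantile normalization, where it was not called. H2BC8 was at 11.2 and 13.6 FPKM in control and at 378 and 380.1 FPKM with GNE-987, a log2 fold change of 4.93 ± 0.11. H2BC14 was at 0 and 0.119 FPKM in control, which is 1 read over the control group, and reached 104 and 98.4 FPKM after GNE-987, from 663 reads. The ratio of these reads on the deposited scale was 1742, with a 95% exact binomial interval from 311 to 68889 that covers counting error only. H2BC14 passed the filter only through GNE-987 and was named for its large rise. It had to differ, so its ratio and interval are a description. H2BC11, named after its values were seen, was at 78.5 and 82.6 FPKM in control and at 148 and 147 FPKM with GNE-987. Its groups did not overlap, and the log2 fold change of 0.87 ± 0.04 (adjusted P = 0.000368) missed the fold change of 2. Of the 14 H2B genes whose control mean passed the filter, 13 were called higher, and 9 with GAPDH. The other 5 of the 19 passed only through GNE-987. Next to H2BC11, the smallest changes among called H2B genes were those of H2BC4 and H2BC17.

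H3 genes were low in control apart from H3C10. H3C10 (chromosome 6, 27810051 to 27811300, plus strand) was at 30.2 and 29.0 FPKM in control, which was 86.8% and 80.8% of the summed H3 FPKM, and at 212 and 194 FPKM with GNE-987, which was 36.6% and 34.7%. The log2 fold change was 2.77 ± 0.06 (limma, adjusted P = 0.000128), the smallest of the 10 tested H3 genes, and 0.92 with GAPDH, where it was not called. Of these 10, 4 had a control mean that passed the filter. H3C12 was at 0.841 and 1.98 FPKM in control and at 128 and 139 FPKM with GNE-987. H3C13 (chromosome 1, 149813225 to 149813693, on the minus strand) stood at 2.54 and 3.85 FPKM and then at 59.95 and 50.2 FPKM. Control replicate 2 was the higher control library for both genes, and both stayed far under the GNE-987 libraries. H3C11 was listed at 0 in each control library and reached 44.2 and 43.6 FPKM after GNE-987, from 310 reads. Against a floor of 3 reads over the control group, H3C11 was at least 271-fold higher. H3C11 passed the filter only through GNE-987 and so had to differ, and this bound is a description. H3C7, H3C8 and H3C15 were also listed at 0 in both control libraries, and were at 11.3 to 18.1 FPKM with GNE-987.

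H4 genes resembled H3 genes in having a single leading gene in control. H4C9 (chromosome 6, 27139282 to 27139678, plus strand) was at 157 and 147 FPKM in control and reached 712 and 678 FPKM after GNE-987. This was 84.0% and 85.2% of the summed H4 FPKM in control and 44.6% and 44.3% with GNE-987. The log2 fold change of H4C9 was 2.19 ± 0.06 (limma, adjusted P = 0.000142), the smallest of the 14 tested H4 genes, and it was not called with GAPDH (0.34) or with quantile normalization (0.51). Of these 14, 9 had a control mean that passed the filter. H4C12 was at 5.15 and 7.24 FPKM in control and at 316 and 318 FPKM with GNE-987. H4C4 was at 3.898 and 1.88 FPKM in control and reached 125 and 116 FPKM after GNE-987. On the log2 scale the control libraries of H4C4 differed by more than those of H4C9, and the SE of H4C4 was larger (log2 fold change 5.42 ± 0.37). H4C6 was listed at 0 in each control library and reached 37.6 and 38.9 FPKM after GNE-987, at least 179-fold higher against the floor of 3 reads over the control group. H4C7 and H4C13 were likewise listed at 0 in control. H4C6, H4C7 and H4C13 passed the filter only through GNE-987 and so had to differ, and the bound for H4C6 is a description.

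**Figure D2:**
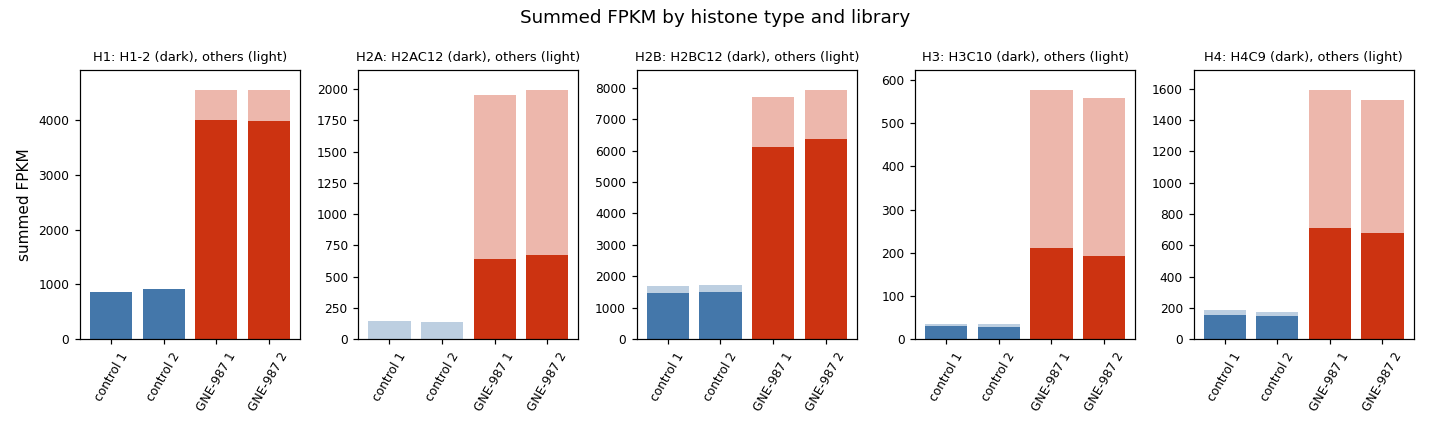
Summed FPKM of each histone type in each of the 4 libraries, on axes that start at 0 and differ between panels. The dark part of each bar is the gene with the highest mean FPKM of its type and the light part all other members. The other members are the smaller share of the H1, H2B, H3 and H4 bars in control and take a larger share with GNE-987.

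Sums by type differed in how much they rose. The summed H2A FPKM was 142 and 139 in control and 1954 and 1995 with GNE-987 (ratio of means 14.1). For H3 it was 34.8 and 35.9 against 578 and 558 (16.1), and for H4 187 and 173 against 1595 and 1529 (8.68). For H1 it was 865 and 921 against 4558 and 4558 (5.10), and for H2B 1677 and 1718 against 7713 and 7939 (4.61). The H1 and H2B sums were mostly H1-2 and H2BC12. Without these 2 genes the other 64 members summed to 574 and 561 FPKM in control and to 6288 and 6221 FPKM with GNE-987, a ratio of 11.02.

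The change was smallest for members that were high in control. In the 16 members with a control mean of at least 10 FPKM the median log2 fold change was 2.34, and 15 were called higher. In the 18 members from 1 to 10 FPKM it was 4.60, and in the 6 from 0.5 to 1 FPKM it was 5.72, and all of these 24 were called higher. Protein-coding genes at the same control levels had medians of -0.43, -0.66 and 0.28, with 15.7%, 13.3% and 31.6% called higher. A fold change holds the control level in its denominator, so the order over the members is a description.

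**Figure D3:**
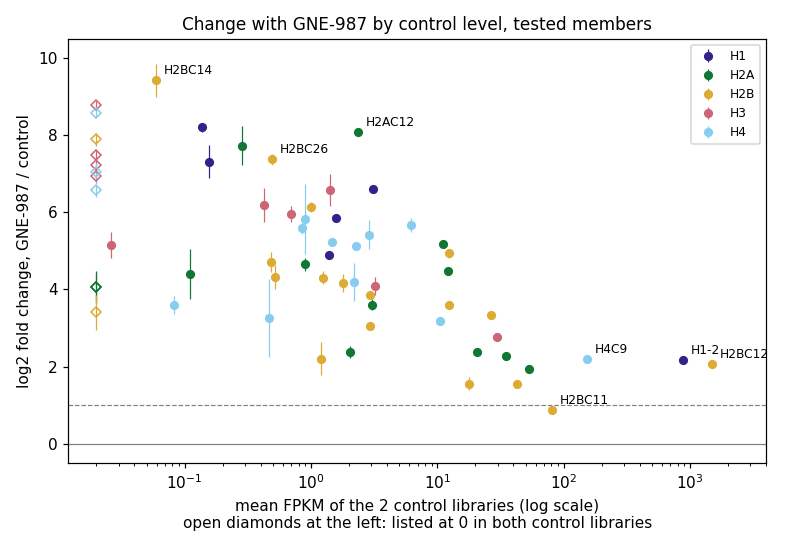
Log2 fold change of the 62 tested members (vertical, with SE bars) by their mean control FPKM (horizontal, log axis), coloured by histone type. Open diamonds at the left are the 11 tested members listed at 0 in both control libraries, whose fitted values depend on the pseudocount. The dashed line is the fold change of 2, and H2BC11 is the point under it.

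By position, runs of members with gaps under 1 Mb lay at 5 places. The chromosome 6 cluster held 53 members in 2 blocks, 32 between 25723397 and 26285638 and 21 between 27125897 and 27893891. The first block summed to 1037 and 1089 FPKM in control and to 6572 and 6540 FPKM with GNE-987 (ratio 6.17), of which H1-2 was 82.8% and 83.9% and then 60.8% and 61.1%. The second block summed to 1811 and 1842 FPKM and then to 9284 and 9482 FPKM (ratio 5.14), with H2BC12 at 81.3% and 82.0% and then at 65.8% and 67.1%. Both blocks were thus led by a single gene. The larger chromosome 1 cluster, with 9 members between 149782689 and 149887965, summed to 19.3 and 19.8 FPKM in control and to 276 and 275 FPKM with GNE-987 (ratio 14.1). All 9 were called higher, with log2 fold changes from 2.38 to 7.48, of which 4 had a control mean that passed the filter.

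The 3 smaller places held 4 members. On chromosome 1, H2AC25 (228434777 to 228457873, on the minus strand) stood at 36.6 and 33.2 FPKM in control and at 163 and 179 FPKM with GNE-987. Its neighbour H2BC26 (228458103 to 228463104, plus strand) was at 0.423 and 0.555 FPKM in control and reached 94.9 and 99.0 FPKM after GNE-987. The log2 fold change of H2AC25 was 2.29 ± 0.08 (limma, adjusted P = 0.000199), and H2AC25 was not called with GAPDH (0.44). H2BC26 passed the filter only through GNE-987 and so had to differ, and its log2 fold change of 7.37 is a description. H2BC12L on chromosome 21 (43565182 to 43565648, plus strand), the member with no stem-loop in the window searched, was at 1.61 and 0.786 FPKM in control and reached 7.02 and 4.43 FPKM after GNE-987. The groups of H2BC12L did not overlap, but its replicates differed widely (log2 fold change 2.21 ± 0.43), and leaving out either GNE-987 library ended its call. The log2 ratio was 1.84 without control replicate 2 and 2.86 without control replicate 1. H4C16 on chromosome 12 (14767999 to 14771131, minus strand) was listed at 0 in each control library and reached 0.186 and 0.308 FPKM after GNE-987, under the filter.

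Many H2A and H2B genes lie head to head and share the DNA between their starts. Members formed 13 such pairs with under 500 bases between the starts, and in 11 both genes were tested. In 8 of these 11 the log2 fold changes of the pair differed by more than 1, with a median difference of 1.69 over the 11. The median was that of H2AC14 and H2BC14, which had 5 reads and 1 read over the control group. H2BC26, H2AC1, H2BC1, H2AC14, H2BC14 and H2AC17 passed the filter only through GNE-987, so the differences in their pairs are a description. The largest difference was in H2BC12 and H2AC12, which read away from each other from the 250 bases at chr6:27146856-27147105, shown on the plus strand of hg38. Capitals mark TATAAA, ATTTGCAT (the octamer motif) and CCAAT on either strand, as a script found them, including overlapping TATAAA matches near the H2AC12 end.
H2BC12 to H2AC12: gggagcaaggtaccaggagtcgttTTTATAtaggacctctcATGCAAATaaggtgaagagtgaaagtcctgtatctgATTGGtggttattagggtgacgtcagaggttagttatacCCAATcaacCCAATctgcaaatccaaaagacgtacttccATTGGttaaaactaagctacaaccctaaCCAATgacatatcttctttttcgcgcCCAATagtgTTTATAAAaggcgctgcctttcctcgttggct
H2BC12 starts at the left end of this stretch and H2AC12 at the right. In control, H2BC12 was 690.4-fold and 588-fold above H2AC12 in the 2 libraries, and with GNE-987 9.48-fold and 9.49-fold. The order turned over in another pair. H2BC11 was 7.17-fold and 7.39-fold above H2AC11 in control, and H2AC11 was 2.74-fold and 2.78-fold above H2BC11 with GNE-987. H2AC25 stayed above H2BC26, by 86.6-fold and 59.9-fold in control and 1.72-fold and 1.80-fold with GNE-987. Pairs such as H2BC4 with H2AC6, and H2BC8 with H2AC8, changed alike to within 0.5 on the log2 scale. With 2 libraries per group, an exact permutation test of a single ratio cannot give a two-sided P value below 0.333, so the ratios are a description.

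**Figure D4:**
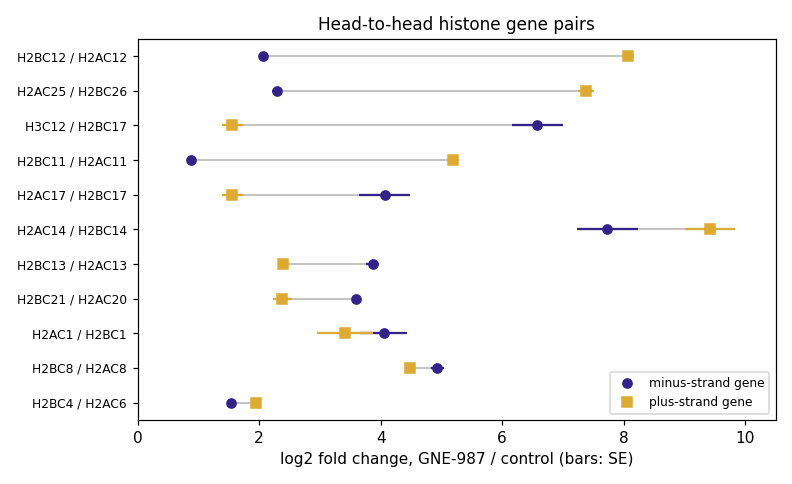
Log2 fold changes, with SE bars, of the 11 head-to-head pairs in which both genes were tested, ordered by the difference within the pair. Circles are the gene on the minus strand and squares the gene on the plus strand. H2BC26, H2AC1, H2BC1, H2AC14, H2BC14 and H2AC17 passed the filter only through GNE-987, and their fitted values depend on the pseudocount. H2BC17 appears in 2 pairs because it faces both H3C12 and H2AC17, which overlap, and H2BC12 with H2AC12 lies at the top.

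The promoter motifs differed between histone types. RefSeq promoters (GRCh38.p14, 250 bases before to 50 after the start) were found for 60 members. ATTTGCAT on either strand was in 11 of 14 H2A promoters, 14 of 18 H2B promoters and 1 of 9 H3 promoters, and in 0 of 6 H1 and 0 of 13 H4 promoters, against 1.80% of all 27305 promoters. CCAAT was in 50 of 60 members (83.3%), but in 3 of 13 H4 genes, against 35.7% of all promoters. TATAAA was in 39 of 60 (65.0%), against 11.95%. A match is a description of these letters in this window and not of a bound factor.

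Some members are known to make polyadenylated mRNA as well, namely H1-2, H2AC6, H2BC4, H2BC5, H2BC12 and H2BC21. All 6 had control means above 10 FPKM, and all 6 were called higher, with a median log2 fold change of 2.12. With GAPDH 2 of them were called, and H1-2 (0.32), H2AC6 (0.09), H2BC4 (-0.31) and H2BC12 (0.21) were not. With quantile normalization 3 were called, and H1-2, H2BC4 and H2BC12 were not. H2BC4 was at 42.8 and 43.2 FPKM in control and at 128 and 123 FPKM with GNE-987, a log2 fold change of 1.54 ± 0.04. H2BC5 was at 27.9 and 25.5 FPKM in control and at 276 and 265 FPKM with GNE-987 (3.34 ± 0.06). H2BC21 (chromosome 1, 149884459 to 149886682, on the minus strand) stood at 13.01 and 11.8 FPKM and then at 151 and 151 FPKM (3.60 ± 0.06). In GENCODE, 17 members have a gene model that runs over 100 bases past the stem-loop, and the 12 of these whose control mean passed the filter had a median log2 fold change of 3.12. For the 48 whose model ends near the stem-loop, 27 passed by their control mean, with a median of 4.65. Another 4 and 18 were tested only through GNE-987. This difference between medians was not tested. The poly(A) selection of the libraries is not given in the sources used here.

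Levels of single members depend on the gene models and on shared sequence. The reads of 28 members came out whole at the length of the GENCODE coding sequence, of 4 at the exon length and of 32 at another length, so the lengths behind most of these values are not the exon lengths of GENCODE release 44. In 9 members at least 50% of the 100-base windows of the transcript also occur in another gene, and their reads cannot be placed with certainty. These were H4C11 and H4C12, H4C14 and H4C15, H3C14 and H3C15, H2AC13 and H2AC14, and H2AC17. H3C4 and H2AC7, which were under the filter, lie with 96.6% and 85.3% of their bases on exons of a gene on the same strand, ENSG00000282988, which was at 2.00 and 2.34 FPKM in control and at 22.9 and 21.5 FPKM with GNE-987. H2BC4 overlaps HFE on the other strand over 430 bases, and HFE was at 0.773 and 0.741 FPKM and then at 45.7 and 43.4 FPKM. Whether the counting used strand is not given in the sources used here.

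Most replication-independent histone genes are expressed through the cell cycle. The list also held H2AX (log2 fold change 1.98), in which the stem-loop letters were found after the stop codon. Of 12 in the list 10 were tested, and 7 were called higher and 0 lower. Of the 8 whose control mean passed the filter 5 were called higher, with a median log2 fold change of 1.54 (over all 10, with GAPDH 3 were higher and 3 lower, with quantile normalization 4 and 1). MACROH2A2, a macroH2A variant, was at 0.110 and 0.0228 FPKM in control and at 3.50 and 4.69 FPKM with GNE-987. H1-10, a linker histone, was at 65.5 and 63.9 FPKM in control and reached 758 and 832 FPKM after GNE-987. MACROH2A2 passed the filter only through GNE-987 and so had to differ. The groups of H1-10, which passed by its control mean, were far apart. H1-10 rose by 3.62 ± 0.06 on the log2 scale (limma, adjusted P = 9.97e-05).

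Genes that process histone mRNA and supply its factors moved in both directions. Of 23 genes, all tested, 3 were called higher, 5 lower and 15 neither, with a median log2 fold change of -0.02 (0 higher and 19 lower with GAPDH, 0 and 11 with total reads, 1 and 8 with quantile normalization). NPAT, the coactivator of replication-dependent histone genes, was at 3.42 and 3.58 FPKM in control and at 4.03 and 3.88 FPKM with GNE-987 (log2 fold change 0.17 ± 0.08, adjusted P = 0.136, not called). SLBP, the stem-loop binding protein, was at 80.8 and 77.8 FPKM in control and at 266 and 264 FPKM with GNE-987. Its log2 fold change was 1.74 ± 0.04, and -0.11 with GAPDH. SRRT, which joins the cap-binding complex, was at 52.9 and 53.4 FPKM and then at 169 and 169 FPKM, a log2 fold change of 1.67 that was -0.18 with GAPDH. The LSM10 and LSM11 proteins are specific to the U7 particle that cuts histone pre-mRNA. LSM10 was at 46.6 and 47.1 FPKM in control and at 7.84 and 6.74 FPKM with GNE-987. LSM11 was at 2.22 and 2.36 FPKM in control and at 0.309 and 0.327 FPKM with GNE-987. LSM10 fell by 2.67 and LSM11 by 2.51 on the log2 scale, and both were also lower under the other scalings.

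DNA replication genes were mostly lower or not called. Of 52 genes, all tested, 2 were called higher and 21 lower, with a median log2 fold change of -0.63 (0 and 49 with GAPDH, 0 and 32 with total reads). CCNE2, a cyclin that acts at the start of S phase, was at 1.99 and 2.00 FPKM in control and at 6.12 and 6.34 FPKM with GNE-987. POLE4, a subunit of DNA polymerase epsilon, was at 14.98 and 14.6 FPKM and then at 35.7 and 36.8 FPKM. These were the 2 genes called higher, and both were below 0 with GAPDH, at -0.21 and -0.56. ORC5, a subunit of the origin recognition complex, fell by 2.37 on the log2 scale, and RFC3, a subunit of the clamp loader, fell by 2.17.

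Histone chaperones bind histones before they reach DNA. Of 17 chaperone genes, all tested, 2 were called higher and 7 lower, with a median log2 fold change of -0.44 (0 and 15 with GAPDH, 1 and 12 with total reads, 1 and 8 with quantile normalization). ASF1B, which hands over newly made H3 and H4, was at 32.5 and 29.3 FPKM in control and at 175 and 182 FPKM with GNE-987, a log2 fold change of 2.53 ± 0.07. NAP1L1 was at 20.5 and 20.6 FPKM and then at 52.5 and 50.7 FPKM (1.32 ± 0.04, and -0.53 with GAPDH). DAXX, a chaperone of H3.3, fell by 2.89 on the log2 scale, from 39.6 and 35.5 to 4.31 and 5.69 FPKM. MMS22L, a partner of TONSL at damaged forks, fell by 2.27.

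Other RNAs without a poly(A) tail were measured for few genes. Of 22 genes in a list of small nuclear and other structured RNAs, 21 were in the table and 10 of these were listed at 0 in all 4 libraries. A control mean that passed the filter was found for 4, of which 3 were called higher and 0 lower. RN7SL2, the most abundant, was at 787 and 291 FPKM in control and at 1123 and 1345 FPKM with GNE-987, and was not called. Another 6 passed only through GNE-987 and so had to differ. RNU5A-1 was at 0 and 1.17 FPKM in control and at 756 and 747 FPKM with GNE-987. RNU4-2 was listed at 0 in each control library and reached 104 and 112 FPKM after GNE-987. Near-identical copies of these genes may share their reads. Genes of the mitochondrial genome took 3.74% and 4.53% of recovered reads in control and 15.7% and 15.3% with GNE-987. The part of these RNAs, and of a change in library makeup, in the result for histone genes was not tested.

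**Figure D5:**
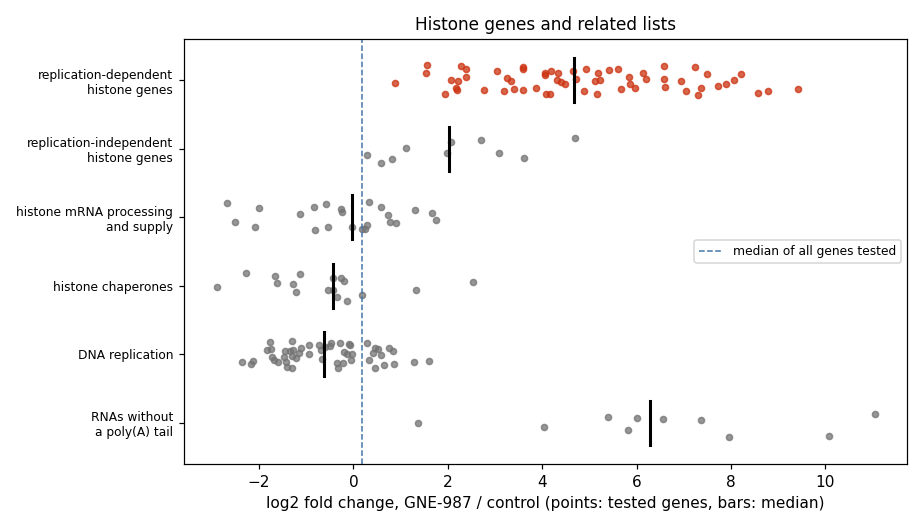
Log2 fold change of each tested gene of the members and of the 5 lists, with black bars at the medians and a dashed line at the median of all tested genes. The members (median 4.68 over the 62 tested, 22 of which passed the filter only through GNE-987) and the RNAs without a poly(A) tail (10 tested, 6 of which passed only through GNE-987) lie to the right, and the replication, chaperone and processing lists lie around or left of the dashed line.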

How the data were processed

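The authors mapped filtered reads with HISAT (HISAT2 2.0.5 and hg38 in the submitters' processing notes) and deposited 1 FPKM value for each gene in each library. The annotation and the counting program are not given in the sources used here. Gene names and positions are from GENCODE release 44. The submitters' method for calling genes was not rerun, since it needs counts and the deposited unit is FPKM. The test was limma (version 3.58.1, R 4.3.3), applied to log2(FPKM + 0.1), with an intensity trend and no replicate block, and a minimum mean of 0.5 FPKM. The call thresholds are those of the study. This scale understates the change of low genes. The Benjamini-Hochberg adjustment spans all 16668 genes. Reads were worked back from the spacing of low FPKM values (tolerance 0.01 of a read). GENCODE exon lengths gave whole reads for 53.0% of genes with any value above 0, and for the rest a length that gave whole reads was searched, a weak test for genes with few reads. The deposited scaling matched median-ratio size factors. The members, lists and tests were chosen with earlier results of these data known. Named members were the 3 highest of each histone type, the 5 largest called changes in each direction, 6 known to make polyadenylated mRNA, and those on chromosomes 12 and 21 and in the second chromosome 1 cluster. From the lists, NPAT, SLBP and the 2 largest called changes in each direction were named. The replicate numbers are from the labels. The deviations of equally numbered libraries correlated at 0.00537 over genes. This correlation shows no shift shared by number, but it cannot show whether the libraries were handled as pairs. The alternatives were other scalings, pseudocounts, filters, thresholds, the replicate block, limma-voom on recovered reads, and leaving out each library. The limma step with its calls was tested on simulated data. Intervals and floors of reads cover counting error only.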

Additional observations from a re-analysis of the deposited data

How the results depend on the processing

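Without GNE-987 replicate 1 or replicate 2, 56 members were called higher, and H2AC21, H2BC12L, H4C2, H4C11 and H4C15 were no longer called. Without control replicate 1, 60 were called and H4C15 was lost. Over the libraries left out in turn, members called higher ranged from 56 to 61 and members called lower stayed at 0, all tested genes called higher ranged from 4978 to 5374 and lower from 3714 to 4101. With the replicate block 61 members were called higher and 0 lower, 5667 of all genes higher and 4186 lower, and no named member changed its call.

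Under GAPDH scaling all genes called were 3031 higher and 9738 lower, and with total reads 6640 were lower. Without a filter on low values 8757 genes were higher. The lists, as higher and lower, became 0 and 19 (GAPDH), 0 and 11 (total reads) and 1 and 8 (quantile) for processing and supply, 0 and 49 and 0 and 32 (GAPDH and total reads) for DNA replication, 3 and 3 (GAPDH) and 4 and 1 (quantile) for replication-independent histones, and 0 and 15 (GAPDH), 1 and 12 (total reads) and 1 higher (quantile) for chaperones. H1-2 was at -0.033 with quantile normalization and H2BC4 at -0.31 with GAPDH. The log2 ratio of the sums became, with GAPDH and with total reads, 0.50 and 1.58 for H1, 1.96 and 3.04 for H2A, 0.35 and 1.43 for H2B, 2.15 and 3.23 for H3, 1.26 and 2.34 for H4, 0.61 and 1.69 for the chromosome 6 cluster, 1.96 and 3.04 for the larger and 1.06 and 2.14 for the smaller chromosome 1 cluster, and 0.38 (GAPDH) for H2BC12L. Without members that share at least 50% of their windows it was 3.91 for H2A, 3.95 for H3, 2.81 for H4, 2.43 for the chromosome 6 cluster and 3.70 for the larger chromosome 1 cluster. The sum of H2BC12L ranged from 1.84 to 2.86 with libraries left out. Median-ratio scaling and limma-voom each called 61 members higher and 0 lower. Depth limits members with few control reads, 15 of which were listed at 0 in both control libraries.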

Other observations

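Histone pseudogenes of the same families were also higher with GNE-987. Of 17 in the table, 6 had a control mean that passed the filter, and 6 of 6 were called higher, with a median log2 fold change of 5.21. Another 6 passed only through GNE-987 and so had to differ. H2BC20P was at 1.89 and 1.73 FPKM in control and at 224 and 214 FPKM with GNE-987. H2AC9P was at 9.72 and 6.75 FPKM and then at 112 and 129 FPKM. Both were named after their values were seen, and reads could be shared with members of similar sequence. In contrast to these, H3C9P was at 0.104 and 0.108 FPKM in control and listed at 0 with GNE-987.

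Other protein-coding genes inside the chromosome 6 blocks did not move in one direction. In the first block 7 such genes were in the table and 5 tested, of which 4 were called higher and 1 lower. The genes called higher were HFE, ENSG00000282988, SLC17A2 and SLC17A1. HFE shares 430 bases with H2BC4 on the other strand. ENSG00000282988 covers 96.6% of H3C4 and 85.3% of H2AC7 on the same strand. Reads could be shared over these overlaps. Of the genes called higher, SLC17A2 and SLC17A1 passed the filter only through GNE-987 and so had to differ. In control, SLC17A2 was at 0.0338 and 0.0704 FPKM, and SLC17A1 was listed at 0 in both libraries. TRIM38, called lower, was at 2.90 and 3.34 FPKM in control and at 1.79 and 1.26 FPKM with GNE-987. Its log2 fold change of -1.0001 lay at the threshold. In the second block 4 were in the table and 3 tested, of which 0 were called higher and 2 lower, ZNF391 (-1.50) and PRSS16 (-1.17).

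Apart from replication-dependent histone genes, the stem-loop letters with a pairing stem were found after the stop codon of 8 protein-coding genes of the genome, 3 of them histone genes (H3-4, H3-7 and H2AX). H3-4 stood at 0.0903 and 0.188 FPKM in the control libraries, against 17.4 and 17.7 FPKM after GNE-987 (log2 fold change 6.24 ± 0.24). Both control values of H3-4 lay under the filter, which this gene cleared through its GNE-987 libraries alone. A difference was therefore built in, and the fold change, which depends on the pseudocount, is a description. H2AX was at 214 and 196 FPKM in control and at 791 and 821 FPKM with GNE-987 (1.98 ± 0.06). UQCRB, a respiratory chain gene, rose by 2.01 ± 0.12 on the log2 scale, and KMT2C, a histone methyltransferase gene, had a log2 fold change of 0.38 ± 0.10 and was not called.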
